A study of Mus musculus with 24 samples.

Results

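The 10 genes described here mark mature dendritic cells or carry their costimulatory signals, namely Fscn1, Ccl22, Ccl17, Cd80, Cd86, Cd40, Cd83, Cd200, Il15 and Relb. They were taken by symbol from a normalized expression table of 16996 genes, and all 10 of 10 were found. The table covers CD45+ cells from 24 mice in 4 groups of 6, with 1 library per mouse. All mice were female Balb/c with a wild-type genotype, 10 to 12 weeks of age, and all carried EMT6-hHER2 tumors. EMT6-hHER2 is a murine breast cancer line that expresses human HER2 and was grown from a single sorted clone, and equal numbers of cells were placed in the mammary fat pad. At a tumor volume of 80 mm3 mice were left untreated or received a single intravenous dose. This dose was 20 mg/kg for trastuzumab, 15 mg/kg for T-DM1 and 1 mg/kg for T-PNU, and CD45+ cells were enriched with beads on day 10. Trastuzumab is an antibody to HER2, T-DM1 is trastuzumab carrying the microtubule inhibitor DM1, and T-PNU is trastuzumab carrying an anthracycline derivative. The 2 conjugates were given at different doses, so payload and dose cannot be told apart in any comparison between them. The study reports T-PNU tumors smaller at harvest than at treatment, while trastuzumab and T-DM1 did not prevent tumor growth. It also counts some T-PNU samples as low-responding. Tumor size and response at harvest therefore cannot be told apart from treatment.

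Dendritic cells take up antigen in tissue and, once they mature, move to lymph nodes and activate T cells. Mature cells show the costimulatory ligands CD80 and CD86 to CD28 on T cells, receive help through CD40, and secrete the chemokines CCL22 and CCL17, which attract cells bearing CCR4. The actin-bundling protein fascin, encoded by Fscn1, the transcription factor RelB, the surface proteins CD83 and CD200, and the cytokine IL-15 belong to the same maturation program, but most of these genes are also expressed by other cells.

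Values are normalized log2 expression as deposited, so a difference of 1 is a doubling on the deposited scale. The transformation behind them is not given, so fold changes stated here may understate those from counts. Groups were compared with limma fitted on all genes, and a gene was called at an adjusted p below 0.05 over the 16996 genes. The depth per sample is unknown, and the number of mice sets the precision. Sample medians lay between 8.73 and 8.87 and correlations between samples between 0.966 and 0.998. The first principal component took 71.9% of the variance of the 1000 most variable genes and did not separate the groups: T-PNU C2, untreated B1, trastuzumab E2 and T-PNU H1 lay at its high end. The study's heatmaps leave out B1 and C1 (untreated) and E2 and B3 (trastuzumab) and hold the other 20 samples. The fit was repeated on these 20. Untreated C1 was the lowest sample on the second component and had the highest Cd40, Il15, Cd86 and Cd200 and the lowest Fscn1 and Ccl17 of its group. Untreated B1 had the lowest Ccl22, Cd80, Cd40, Cd83 and Il15 of its group. For Relb, C1 was the lowest and B1 the highest untreated sample. Since these 2 mice were the lowest or highest of the untreated group for all 10 genes, values without these 4 samples are given beside the results they change. In bulk samples such as these, fewer cells of a type and less RNA per cell cannot be told apart.

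The 10 genes did not behave as a single program. Over the 24 samples, 31 of the 45 pairs among them were positively correlated, with a median Pearson r of 0.15 and a range from -0.70 for Fscn1 and Cd86 to 0.81 for Fscn1 and Ccl17. Ccr7 and Lamp3 are markers of migrating mature dendritic cells, but Ccr7 is also carried by naive lymphocytes. The Lamp3 level was low, with a mean of 3.82 and the 9.17th percentile of all genes when scaled by exon length. Ccr7 and Lamp3 ran against Fscn1 (r = -0.44 and -0.57, and -0.23 and -0.30 without the 2 samples farthest from the median). They also ran against Ccl17 (r = -0.47 and -0.55, and -0.29 and -0.27 without the 2 farthest samples). Their relation to Ccl22 was weak (r = -0.23 and -0.12). By the correlations among the 10 genes, they were not a set that moved together in these tumors. The name mature dendritic cell genes describes where they were drawn from. All correlations here are descriptions over 24 samples that share a normalization and a mix of cell types.

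Scaled by exon length, Cd83 had the highest mean level of the 10 genes (12.5 log2 per kilobase, the 98.4th percentile of all genes), followed by Cd86 (10.9), Cd40 (10.3), Fscn1 (10.0) and Relb (9.47). Il15 (8.68), Cd80 (8.07), Ccl22 (7.57) and Cd200 (7.22) were in the middle of the range. Ccl17 was lowest, at 6.02 log2 per kilobase and the 41.1st percentile. Fscn1 spanned the widest range over the 24 samples, 2.16 on the log2 scale, and Relb the narrowest, 0.64.

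**Figure D1:**
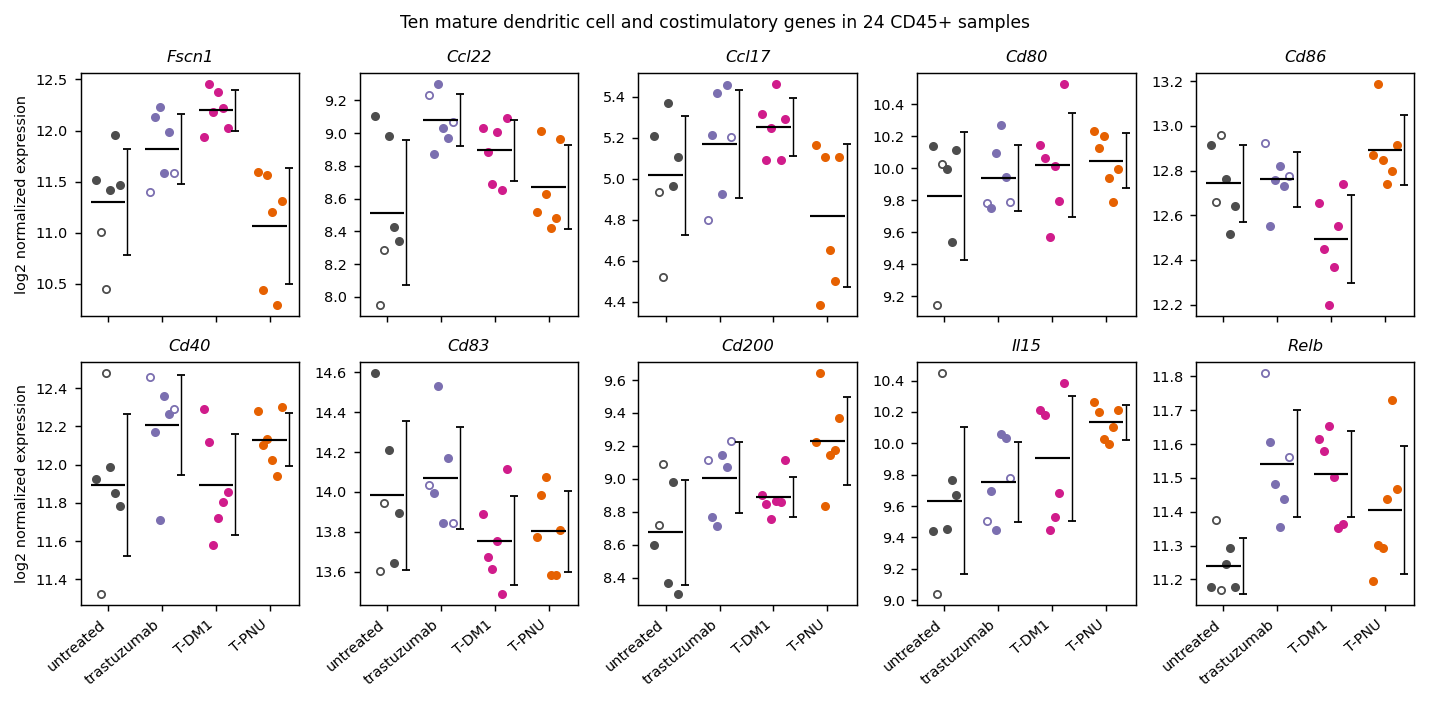
Normalized log2 expression (vertical axes) of the 10 genes, one panel per gene, by group (horizontal axes). Each point is 1 mouse, horizontal bars are group means, vertical bars span 1 SD on either side, and open points are the 4 samples absent from the study's heatmaps. Fscn1 in the 6 T-DM1 samples lay between 11.93 and 12.45, above all 6 T-PNU samples, while Cd86 had the opposite order.

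Promoter sequence is shown for the gene with the widest range, Fscn1, and for the chemokine pair Ccl22 and Ccl17, which lie in a cluster on chromosome 8 with 58753 bases and the chemokine gene Cx3cl1 between them. The sequences are from RefSeq on GRCm38.p6, cut at the GENCODE M21 gene start, in lower case, 5′ to 3′ on the + strand. Capitals mark matches, on either strand, to TGACGTCA (the CRE motif), TATAAA (the TATA box) and GGGACTTT (the first 8 letters of a common NF-kB motif).
Fscn1, chr5:142960105-142960342: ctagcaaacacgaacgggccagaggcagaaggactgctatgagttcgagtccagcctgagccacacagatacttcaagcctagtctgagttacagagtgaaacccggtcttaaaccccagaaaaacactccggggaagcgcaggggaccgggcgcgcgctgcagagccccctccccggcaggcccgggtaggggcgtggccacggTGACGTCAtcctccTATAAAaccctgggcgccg
Ccl22, chr8:94745434-94745589: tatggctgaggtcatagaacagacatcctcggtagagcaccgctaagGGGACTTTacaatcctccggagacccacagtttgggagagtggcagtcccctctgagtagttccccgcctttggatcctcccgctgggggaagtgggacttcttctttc
Ccl17, chr8:94810203-94810452: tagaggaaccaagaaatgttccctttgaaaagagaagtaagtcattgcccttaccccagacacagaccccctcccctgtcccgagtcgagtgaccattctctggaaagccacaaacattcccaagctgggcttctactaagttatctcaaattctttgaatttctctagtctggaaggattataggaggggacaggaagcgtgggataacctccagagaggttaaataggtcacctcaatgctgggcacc
Of 32851 mouse promoters searched over 250 bases, 1.55% held TGACGTCA, 12.4% held TATAAA and 1.21% held GGGACTTT. Fscn1 held the first and second, Ccl22 held the third, and the Ccl17 window held none of these letters. A match is a description of the sequence, not a bound site.

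Fscn1 (ENSMUSG00000029581, chr5:142960343-142973185 on GRCm38) differed most between groups. Untreated samples ran from 10.45 in C1 through a median of 11.44 to 11.95 in E1. Trastuzumab samples ran from 11.40 in E2 (median 11.79) to 12.23 in G2. T-DM1 samples were the highest and closest together, from 11.93 in C3 (median 12.20) to 12.45 in D3. T-PNU samples ran from 10.29 in C2 (median 11.26) to 11.59 in G1, and every one lay below every T-DM1 sample. Fscn1 was 2.19-fold lower after T-PNU than after T-DM1 (log2 difference -1.13 ± 0.23, SE, n = 6 and 6, adjusted p = 0.00247 with limma). It was higher after T-DM1 than in untreated samples (0.90 ± 0.23, adjusted p = 0.0258), with 5 of 6 T-DM1 samples above all untreated samples. This second call was lost on the 20 samples (0.61, adjusted p = 0.148) and without untreated C1 alone (0.73, adjusted p = 0.0655). It was also lost without T-DM1 D3, E3 or F3, with an adjusted p of up to 0.0693. T-PNU against untreated did not pass (-0.23, adjusted p = 0.520), and T-PNU against trastuzumab did not pass on all 24 samples (-0.75, adjusted p = 0.156) but did on the 20 (-0.92, adjusted p = 0.0115) and with sample weights (-0.69, adjusted p = 0.0237). In the order T-DM1, trastuzumab, untreated, T-PNU, no neighbouring pair passed the test.

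Fscn1 followed the summed level of a list of tumor and stromal cell genes. The list holds 12 markers, among them Krt8, Col1a1, Pdgfrb and Kdr. It was measured in full in these CD45+ samples, and none of the 12 was near the lowest value of the table, 1.13. Abundant genes weigh most in the sum, such as Col1a2 (mean 15.16) and Col3a1 (14.15). Per kilobase, Krt8 was at the 97.7th percentile of all genes and Col1a2 at the 96.6th. The log2 of the summed level of the list was 16.35 ± 0.44 in untreated samples (SD, range 15.61 to 16.73), 16.58 ± 0.35 after trastuzumab (16.15 to 16.93), 17.11 ± 0.17 after T-DM1 (16.89 to 17.36) and 15.94 ± 0.51 after T-PNU (15.15 to 16.46). The T-PNU and T-DM1 ranges did not overlap. Between T-PNU and T-DM1, 6 of the 12 fell and 3 rose, where 17.4% and 12.4% of all genes did, with the largest difference downward in the collagen gene Col1a1 (-1.62) and upward in the epithelial adhesion gene Epcam (0.84). Between T-DM1 and untreated samples, 2 of the 12 rose, where 4.11% of all genes did, and Col1a1 differed most (1.32). None of the 12 was called on the 20 samples, where 0.906% of all genes rose, and their median went from 0.42 to 0.20.

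Over the 24 samples Fscn1 correlated with the summed level of this list at r = 0.97 (Spearman's rho 0.94, 0.95 without the 2 samples farthest from the median, 0.97 with group means removed). The genes most like Fscn1 of all in the table were Sema3f, Fgd1 and Col1a1, each at r = 0.99. Its correlation was -0.71 with a list of 14 dendritic cell markers and -0.82 with a list of 6 pan-leukocyte genes. Subtracting the list level from Fscn1 left -5.04 ± 0.17 in untreated samples, -4.76 ± 0.04 after trastuzumab, -4.91 ± 0.07 after T-DM1 and -4.88 ± 0.10 after T-PNU. On this scale the T-PNU and T-DM1 means lay within 1 SD of each other, and the untreated mean was the lowest.

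**Figure D2:**
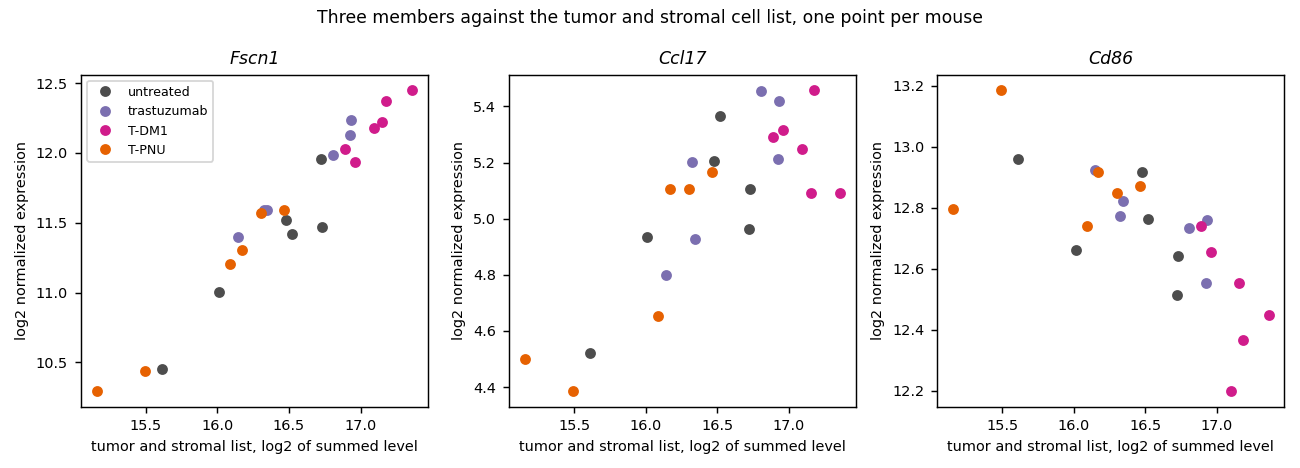
Normalized log2 expression of Fscn1, Ccl17 and Cd86 (vertical axes) against the log2 of the summed level of 12 tumor and stromal cell genes (horizontal axes), 1 point per mouse, colored by group. Fscn1 and Ccl17 rise with the list (r = 0.97 and 0.81) and Cd86 falls (r = -0.73).

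The chemokines Ccl17 and Ccl22 bind the same receptor, CCR4, but Ccl17 passed the test between the conjugates and Ccl22 did not. The difference between these 2 effects was not tested. Ccl17 (ENSMUSG00000031780, chr8:94810453-94812036) ran from 4.52 (median 5.04) to 5.37 in untreated samples and from 4.80 (median 5.21) to 5.46 after trastuzumab. It ran from 5.09 (median 5.27) to 5.46 after T-DM1 and from 4.38 (median 4.88) to 5.17 after T-PNU. The T-PNU group was divided, with H1, C2 and B2 between 4.38 and 4.65 and G1, A2 and D2 between 5.11 and 5.17, and only the lower 3 lay below all T-DM1 samples. The relation of this division to tumor response was not tested. Ccl17 was 1.35-fold lower after T-PNU than after T-DM1 (-0.43 ± 0.15, adjusted p = 0.0376). Leaving out single mice of the 2 groups took the adjusted p to between 0.0194 and 0.112, with the call kept in 5 of 12 cases and lost without T-PNU H1, B2 or C2 or T-DM1 C3, E3, F3 or H3. Ccl17 was lower after T-PNU than after trastuzumab on the 20 samples (-0.43, adjusted p = 0.0427) but not on all 24 (-0.35, adjusted p = 0.227). The level of Ccl17 was low, and it also went with the tumor and stromal list (r = 0.81, and 0.75 with group means removed), whose summed level was lower after T-PNU than after T-DM1. Subtracting the list level left -11.86 ± 0.26 after T-DM1 and -11.13 ± 0.27 after T-PNU. The list level (17.11 after T-DM1 and 15.94 after T-PNU) differed more than Ccl17 did, so the turned direction follows from the subtraction. It does not show Ccl17 as higher after T-PNU at an equal share of these cells. The part of these cells in the Fscn1 and Ccl17 results was not tested beyond these values.

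Ccl22 (ENSMUSG00000031779, chr8:94745590-94751699) had a different order. Untreated samples ran from 7.95 in B1 (median 8.38) to 9.11 in A1. Trastuzumab samples ran from 8.88 (median 9.05) to 9.30, T-DM1 samples from 8.65 (median 8.95) to 9.10 and T-PNU samples from 8.42 (median 8.57) to 9.02. Every group overlapped the untreated samples, whose spread was the widest. Trastuzumab minus untreated was 0.56 ± 0.16 (adjusted p = 0.141) and T-DM1 minus untreated 0.38 ± 0.16 (adjusted p = 0.146), and without the 4 samples these differences became 0.33 and 0.18. T-PNU minus T-DM1 was -0.22 ± 0.16 (adjusted p = 0.281) and T-PNU minus trastuzumab -0.41 ± 0.16 (adjusted p = 0.190). Ccl22 passed the test for any difference among the 4 groups (adjusted p = 0.0481), but not on the 20 samples (adjusted p = 0.168). The genes most like Ccl22 were Nfkbie (r = 0.87), an inhibitor of NF-kB, Gpr4 (0.86) and Zbtb46 (0.85), a transcription factor of conventional dendritic cells. Ccl22 did not go with the tumor and stromal list as Ccl17 did (r = 0.31, and 0.09 with group means removed). Ccr4, the receptor of both chemokines, averaged 5.69 in untreated samples and 6.32 after T-PNU, and its correlation with Ccl22 was -0.25.

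Of the costimulatory ligands of CD28, Cd86 changed and Cd80 did not pass in any comparison. Cd86 (ENSMUSG00000022901, chr16:36603869-36666081) ran from 12.51 (median 12.71) to 12.96 in untreated samples and from 12.55 (median 12.77) to 12.92 after trastuzumab. After T-DM1 it ran from 12.20 in E3 (median 12.50) to 12.74 in H3, and after T-PNU from 12.74 in B2 (median 12.86) to 13.19 in H1. The lowest T-PNU sample lay just above the highest T-DM1 sample, so the groups touched without overlapping. Cd86 was 1.32-fold higher after T-PNU than after T-DM1 (0.40 ± 0.09, adjusted p = 0.00488), and the call held in all 12 fits that left out a mouse (adjusted p up to 0.0177). The untreated group lay between them, with T-DM1 minus untreated at -0.25 ± 0.09 (adjusted p = 0.110) and T-PNU minus untreated at 0.15 ± 0.09 (adjusted p = 0.309). Neither of those differences passed on all 24 samples with equal weights. With sample weights T-DM1 minus untreated did (-0.22, adjusted p = 0.0408), and T-PNU minus untreated passed under no alternative run.

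Cd86 ran opposite to the tumor and stromal list (r = -0.73, and -0.46 with group means removed) and with macrophage and monocyte markers (r = 0.61) and pan-leukocyte genes (r = 0.68). Between T-PNU and T-DM1, where 12.4% of all genes rose, 6 of 12 macrophage and monocyte genes did (median 0.58, largest for the phagocytic receptor Mertk at 0.93) and 3 of 6 pan-leukocyte genes rose (median 0.38, largest for Ptprc, which encodes CD45, at 0.76). Cd86 minus the macrophage level was -4.50 ± 0.18 after T-DM1 and -4.67 ± 0.26 after T-PNU, and Cd86 minus the leukocyte level was -4.17 ± 0.17 and -4.26 ± 0.24. These differences had the opposite direction to Cd86 itself. This follows from the subtraction, since both list levels differed more between the groups than Cd86 did. The macrophage level was 17.00 after T-DM1 and 17.56 after T-PNU, and the leukocyte level 16.66 and 17.15. The part of these cell types in the Cd86 difference was not tested. The genes nearest to Cd86 were Lmbrd1 (r = 0.93), Abcg2 (0.90) and Rb1 (0.88).

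Cd80 (ENSMUSG00000075122, chr16:38455561-38496335) ran from 9.14 in B1 (median 10.01) to 10.14 in untreated samples and from 9.79 (median 10.06) to 10.23 after T-PNU. Trastuzumab samples ran from 9.75 (median 9.87) to 10.27 and T-DM1 samples from 9.57 (median 10.04) to 10.53. All groups overlapped, and the difference between T-PNU and T-DM1 was 0.03 (95% interval -0.30 to 0.36). Its nearest genes were Gpr35 (r = 0.90), the monocyte chemokine receptor Ccr2 (0.88) and Ndel1 (0.87). Cd28 encodes the costimulatory receptor on T cells that binds both ligands. Its level averaged 9.59 ± 1.33 in untreated samples, 9.66 ± 1.07 after trastuzumab, 9.37 ± 0.68 after T-DM1 and 10.72 ± 0.85 after T-PNU. The difference of 1.35 between T-PNU and T-DM1 did not pass on 24 samples (adjusted p = 0.0624) and passed on 20 (adjusted p = 0.00993). Ctla4, the inhibitory receptor of the same ligands, had a difference of 0.95 (adjusted p = 0.0699, and 0.0127 on the 20 samples).

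Cd40 and Cd83 did not pass in any comparison. Cd40 (ENSMUSG00000017652, chr2:165055627-165072948), the receptor through which T cells license dendritic cells, ran from 11.32 in B1 (median 11.89) to 12.48 in C1 in untreated samples. These 2 samples, both absent from the heatmaps, were the lowest and highest of all 24. Trastuzumab samples ran from 11.71 (median 12.28) to 12.46, T-DM1 samples from 11.58 (median 11.83) to 12.29 and T-PNU samples from 11.94 (median 12.12) to 12.30. The largest difference was trastuzumab minus untreated, 0.32 ± 0.15 (adjusted p = 0.556). Cd40 went with macrophage and monocyte markers (r = 0.77) and NK cell markers (r = 0.81), and its nearest genes were Tnfsf15 (0.92), Ebi3 (0.91) and Slc11a1 (0.90). Cd40lg, which encodes its T cell ligand, averaged 5.06 ± 1.26 in untreated samples, 5.02 ± 0.87 after trastuzumab, 5.24 ± 0.85 after T-DM1 and 5.93 ± 1.13 after T-PNU.

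Cd83 (ENSMUSG00000015396, chr13:43784775-43803132), a surface protein of mature dendritic cells and activated B cells, was the most abundant of the 10 per kilobase. It ran from 13.61 (median 13.92) to 14.60 in untreated samples, from 13.85 (median 14.01) to 14.53 after trastuzumab, from 13.49 (median 13.71) to 14.12 after T-DM1 and from 13.59 (median 13.79) to 14.08 after T-PNU. The groups overlapped throughout, and the T-PNU and T-DM1 means differed by 0.05 (95% interval -0.26 to 0.36). The largest difference, T-DM1 minus trastuzumab, was -0.31 ± 0.15 (adjusted p = 0.319). Cd83 went against B cell (r = -0.50) and T cell (r = -0.58) markers and with Ccl22 (r = 0.59, and 0.77 with group means removed). Its nearest genes were Bcl2a1d (0.89), 2510009E07Rik (0.88) and Bcl2a1a (0.86). Bcl2a1d and Bcl2a1a are near-identical paralogs, so reads may be shared between them.

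Cd200 was the member with the largest difference between T-PNU and untreated samples. Cd200 (ENSMUSG00000022661, chr16:45382135-45409053) encodes a ligand that inhibits myeloid cells through CD200R1. Untreated samples ran from 8.30 in F1 (median 8.66) to 9.09 in C1, trastuzumab samples from 8.71 (median 9.09) to 9.23 and T-DM1 samples from 8.76 (median 8.86) to 9.11. T-PNU samples ran from 8.84 in A2 (median 9.20) to 9.64 in H1, and 5 of 6 lay above all untreated and all T-DM1 samples. T-PNU minus untreated was 0.55 ± 0.14 (adjusted p = 0.0575), which missed the threshold on all 24 samples and passed on the 20 (0.67, adjusted p = 0.00483). Leaving out untreated C1 alone also brought it past the threshold (0.64, adjusted p = 0.00613), as did leaving out T-PNU G1 or A2 (adjusted p = 0.0376 and 0.0394). T-PNU minus T-DM1 was 0.34 ± 0.14 (adjusted p = 0.0605, and 0.0397 on the 20 samples). Its nearest genes were the neutrophil gene Retnlg (r = 0.82), Pdxk (0.82) and Mgll (0.82), and it went with NK cell markers (r = 0.75) and dendritic cell markers (r = 0.65). Cd200r1 rose between T-DM1 and T-PNU (0.77, adjusted p = 0.00778), from a mean of 8.83 ± 0.35 to 9.60 ± 0.11, and its correlation with Cd200 was 0.57.

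Il15 (ENSMUSG00000031712, chr8:82331632-82403222) encodes a cytokine that sustains NK cells and CD8 T cells and is presented on IL-15 receptor alpha. Untreated samples ran from 9.04 in B1 (median 9.56) to 10.45 in C1, trastuzumab samples from 9.45 (median 9.74) to 10.06 and T-DM1 samples from 9.45 (median 9.93) to 10.38. The T-PNU samples were tightly grouped, from 9.99 (median 10.15) to 10.26, and were above 5 of the 6 untreated samples. T-PNU minus untreated was 0.50 ± 0.19 (adjusted p = 0.113) on all samples and 0.55 (adjusted p = 0.0190) on the 20. Without untreated C1, the single sample above the T-PNU group, it was 0.66 (adjusted p = 0.0118). T-DM1 samples fell into 2 levels, with C3, D3 and H3 at 10.18 or above and E3, F3 and G3 at 9.68 or below. The nearest genes were interferon-inducible, Trim30d (r = 0.97), Ifi44 (0.96) and Ifi204 (0.96). Il15ra, which encodes the presenting receptor chain, had r = 0.85 with Il15 (0.82 with group means removed), and NK cell markers had r = 0.80. Between T-PNU and T-DM1, 4 of 5 measured NK cell genes rose (median 0.68), where 12.4% of all genes did, while Il15 differed by 0.23 ± 0.19 (adjusted p = 0.345).

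Relb (ENSMUSG00000002983, chr7:19606217-19629438), a subunit of the alternative NF-kB pathway that dendritic cell maturation requires, was lowest in untreated samples. These ran from 11.17 (median 11.21) to 11.37. Trastuzumab samples ran from 11.36 (median 11.52) to 11.81, T-DM1 samples from 11.35 (median 11.54) to 11.65 and T-PNU samples from 11.19 (median 11.37) to 11.73. Of the 6 samples in each group, 5 after trastuzumab, 4 after T-DM1 and 3 after T-PNU lay above all untreated samples. The differences from untreated were 0.30 ± 0.08 (adjusted p = 0.140), 0.27 ± 0.08 (adjusted p = 0.0560) and 0.16 ± 0.08 (adjusted p = 0.226), and none passed with equal weights on all 24 samples, although Relb passed the test for any difference among the 4 groups (adjusted p = 0.0420, and 0.0612 on the 20 samples). The T-DM1 difference passed when untreated B1 or T-DM1 G3 or H3 was left out (adjusted p = 0.0464, 0.0498 and 0.0373), with quantile normalization (0.0351) and among genes above the median level (0.0471). With sample weights all 3 differences passed (adjusted p = 0.0244 for trastuzumab, 0.00131 for T-DM1 and 0.0439 for T-PNU). Its partner Nfkb2 went with it (r = 0.86) and rose after T-DM1 against untreated samples (0.41, adjusted p = 0.0145), a call lost on the 20 samples (0.31, adjusted p = 0.0806). The genes nearest to Relb were Zfp628 (r = 0.95), Pcnx3 (0.93) and Rfx1 (0.92). Of 17 NF-kB and CD40 signaling genes, Relb included, 5 rose after T-DM1, 2 after trastuzumab and 1 after T-PNU against the same untreated samples, where 4.11%, 0.247% and 0.135% of all genes rose, and none fell. On the 20 samples the counts were 3, 0 and 4, where 0.906%, 0% and 15.3% of all genes rose. The atypical inhibitor Bcl3 had the largest difference after T-DM1 (0.54) and after trastuzumab (0.51).

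**Figure D3:**
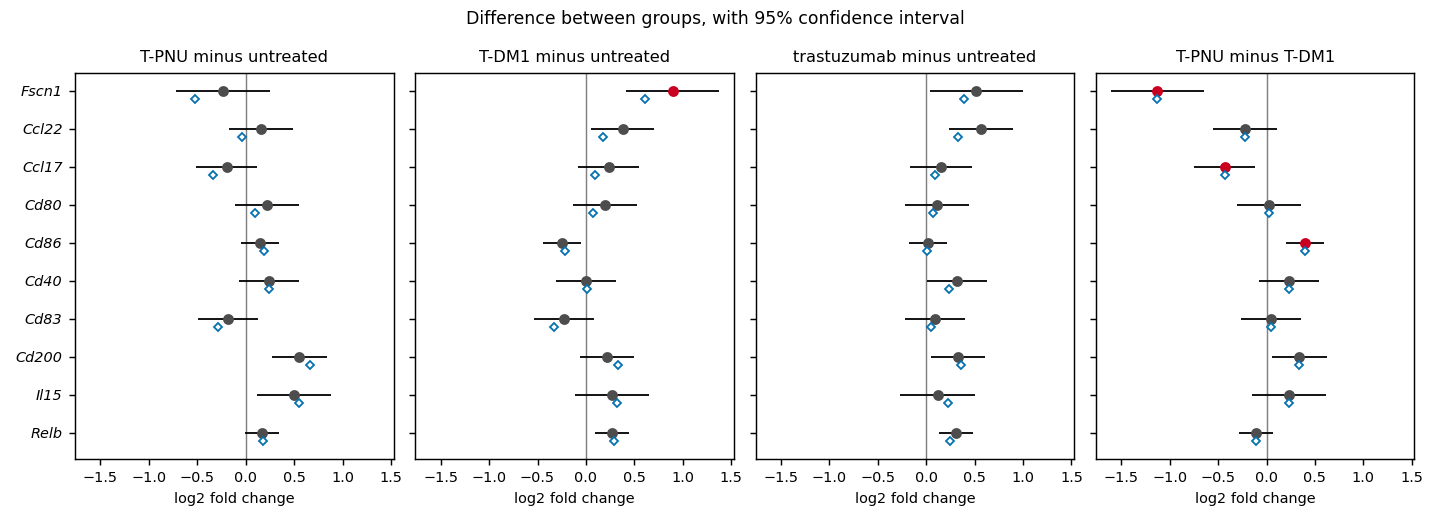
Log2 fold change (horizontal axes) of the 10 genes in 4 comparisons, with filled circles for the fit on 24 samples, lines for its 95% confidence intervals, red for an adjusted p below 0.05, and open diamonds for the fit on 20 samples. Fscn1, Ccl17 and Cd86 were called between T-PNU and T-DM1, and Fscn1 between T-DM1 and untreated samples.

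Counted together, the share of the 10 genes that was called lay near the share over all genes in the 6 pairs of groups. Between T-PNU and T-DM1, 3 of 10 were called, 1 higher and 2 lower, where 29.8% of all genes were called, and 4 had an unadjusted p below 0.05, where 42.9% of all genes did. On the 20 samples 4 were called, Cd200 in addition, where 39.9% of all genes were. With a false discovery rate below 0.01 and a fold change above 2, 1 of 10 was called, Fscn1, where 1.91% of all genes were. The median difference was 0.04, against 0.03 over all genes. Groups did not overlap for 2 of the 10, Fscn1 and Cd86, where this held for 13.2% of all genes. Between T-DM1 and untreated samples 1 of 10 was called, where 6.27% of all genes were, with 4 at an unadjusted p below 0.05 (23.4% of all genes) and a median of 0.22 against -0.02. The stricter threshold called 0 of 10 here, where it called 0.153% of all genes, and on the 20 samples 0 of 10 were called at an adjusted p below 0.05, where 2.01% of all genes were.

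Between T-PNU and untreated samples 0 of 10 were called with limma, where 0.188% of all genes were, and 2 had an unadjusted p below 0.05, where 24.8% of all genes did. On the 20 samples 2 of 10 were called, Cd200 and Il15, where 31.1% of all genes were. Between trastuzumab and untreated samples 0 of 10 were called (0.259% of all genes), and 5 had an unadjusted p below 0.05, where 8.77% of all genes did. All 10 differences were positive, where 45.5% of all genes had a positive difference, with a median of 0.23 against -0.01 over all genes. Between T-PNU and trastuzumab 0 of 10 were called (0.00588% of all genes), with 3 at an unadjusted p below 0.05 (19.5%), and Fscn1 and Ccl17 were called on the 20 samples, where 28% of all genes were. Between T-DM1 and trastuzumab 0 of 10 were called (0.647%), with 3 at an unadjusted p below 0.05 (15.3%). The comparisons with untreated samples share those 6 mice, so their directions are not independent.

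A test for any difference among the 4 groups called 5 of the 10, where 18.8% of all genes were called: Fscn1 (adjusted p = 0.0111), Cd86 (0.0278), Cd200 (0.0327), Relb (0.0420) and Ccl22 (0.0481). At a false discovery rate of 0.01 it called 0 of 10 and 2.05% of all genes. On the 20 samples it called Fscn1, Cd86, Cd200 and Ccl17, where 40.8% of all genes were called. Cd86, Ccl17 and Ccl22 are also shown in the study's heatmaps of these samples, so their choice is not independent of these data.

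Of 25 other genes listed for the maturation program, 23 were measured. Between T-DM1 and T-PNU 4 of these rose and 1 fell, where 12.4% and 17.4% of all genes did, with a median of 0.19 against 0.03. Without the 4 samples absent from the heatmaps 6 rose and 2 fell, where 19.8% and 20.1% of all genes did. The gene with the largest difference upward, Ccr7, which guides mature dendritic cells to lymph nodes and is also carried by naive lymphocytes, differed by 0.63 and did not pass (adjusted p = 0.456). It averaged 12.20 ± 1.37 in untreated samples, 12.33 ± 1.25 after trastuzumab, 12.58 ± 0.82 after T-DM1 and 13.20 ± 1.24 after T-PNU. Lamp3, a lysosomal protein of mature dendritic cells, differed by 0.53 (adjusted p = 0.130). The gene that fell on all 24 samples was Cacnb3, a calcium channel subunit (-1.11, adjusted p = 0.000850), and it also rose after T-DM1 against untreated samples (0.84, adjusted p = 0.00975), although not on the 20 samples (0.61, adjusted p = 0.0507). Against untreated samples, 0 of the 23 were called after T-PNU with limma, where 0.188% of all genes were. Of the 23, 3 had an unadjusted p below 0.05, where 24.8% of all genes did. On the 20 samples 7 rose and 1 fell, where 15.3% and 15.7% of all genes did. Of 14 dendritic cell markers 3 rose and none fell between T-DM1 and T-PNU, where 12.4% and 17.4% of all genes did. On the 20 samples 7 rose, where 19.8% of all genes did. The cross-presenting cell receptor Xcr1 differed most (1.19).

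Of the 8 receptors and binding partners of the 10 genes, 2 rose between T-DM1 and T-PNU, where 12.4% of all genes did. On the 20 samples 6 rose, where 19.8% of all genes did. All 8 differences were positive, where 54.2% of all genes had a positive difference, with a median of 0.75 against 0.03 over all genes. Against untreated samples 0 of 8 were called after T-PNU with limma, where 0.188% of all genes were. Of the 8, 5 had an unadjusted p below 0.05, where 24.8% of all genes did. All 8 rose on the 20 samples, where 15.3% of all genes did, with a median that went from 0.63 to 1.10. Untreated B1 had the highest Cd28, Ctla4, Cd40lg and Ccr4 of its group and trastuzumab E2 of its own. T cell markers moved alongside, with 0 of 10 called between T-PNU and untreated samples on 24 samples (2 at an unadjusted p below 0.05, median 0.96) and 10 of 10 on 20 samples (median 1.53). The part of T cell number in these receptor levels was not tested.

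**Figure D4:**
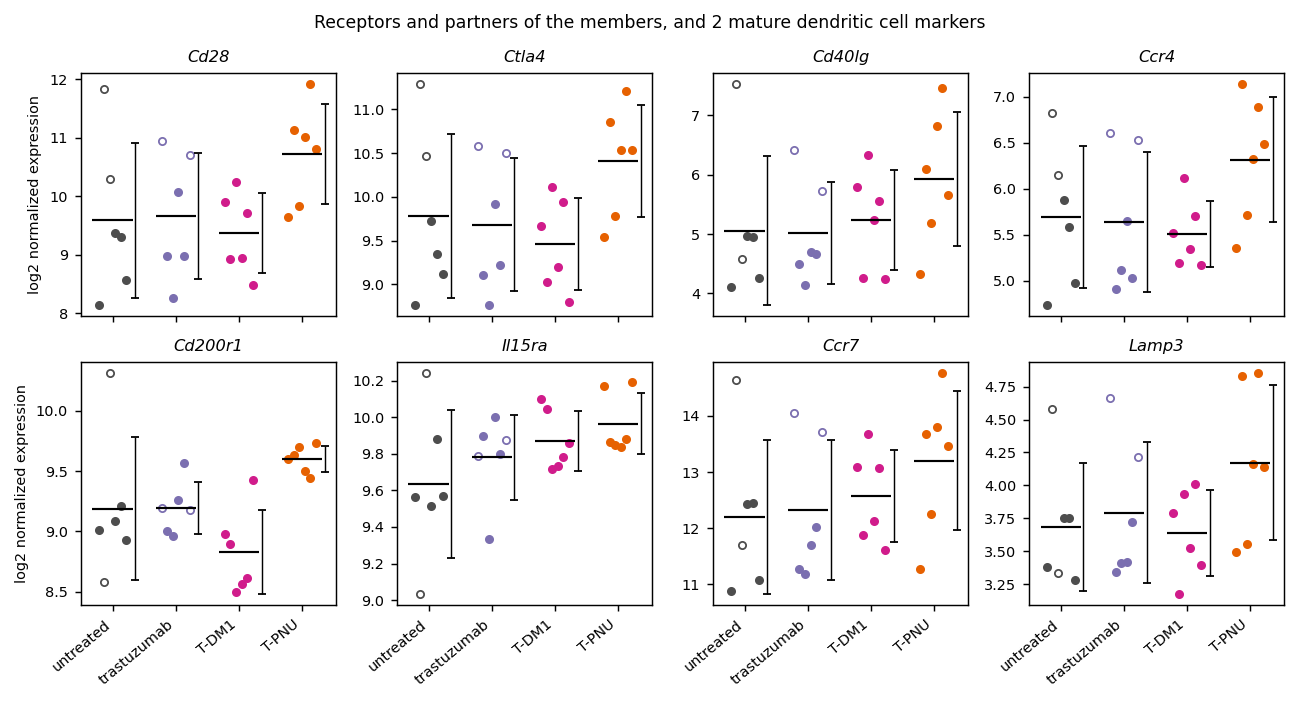
Normalized log2 expression (vertical axes) of 6 receptors or binding partners and of Ccr7 and Lamp3 by group (horizontal axes). Each point is 1 mouse, horizontal bars are group means, vertical bars span 1 SD on either side, and open points are the 4 samples absent from the study's heatmaps. For Cd28 the highest untreated and trastuzumab samples, B1 (11.83) and E2 (10.95), are open points.

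Read across samples, the 10 genes differed in the markers they went with, but they did not fall into separate groups. Fscn1 and Ccl17 went with the tumor and stromal list and against pan-leukocyte genes (r = -0.82 and -0.72). Cd40, Il15 and Cd200 went with NK cell markers (r from 0.75 to 0.81). Among themselves r was 0.64 for Cd40 and Il15, 0.62 for Cd200 and Il15 and 0.49 for Cd40 and Cd200. Cd40 also went with macrophage and monocyte markers (r = 0.77) and with Cd86 (0.53), and Cd80 went with Il15 (0.61). Cd86 went with leukocyte and macrophage genes, and Ccl22 with Cd83. Relb went with the NF-kB and CD40 signaling list, which contains it (r = 0.60).

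**Figure D5:**
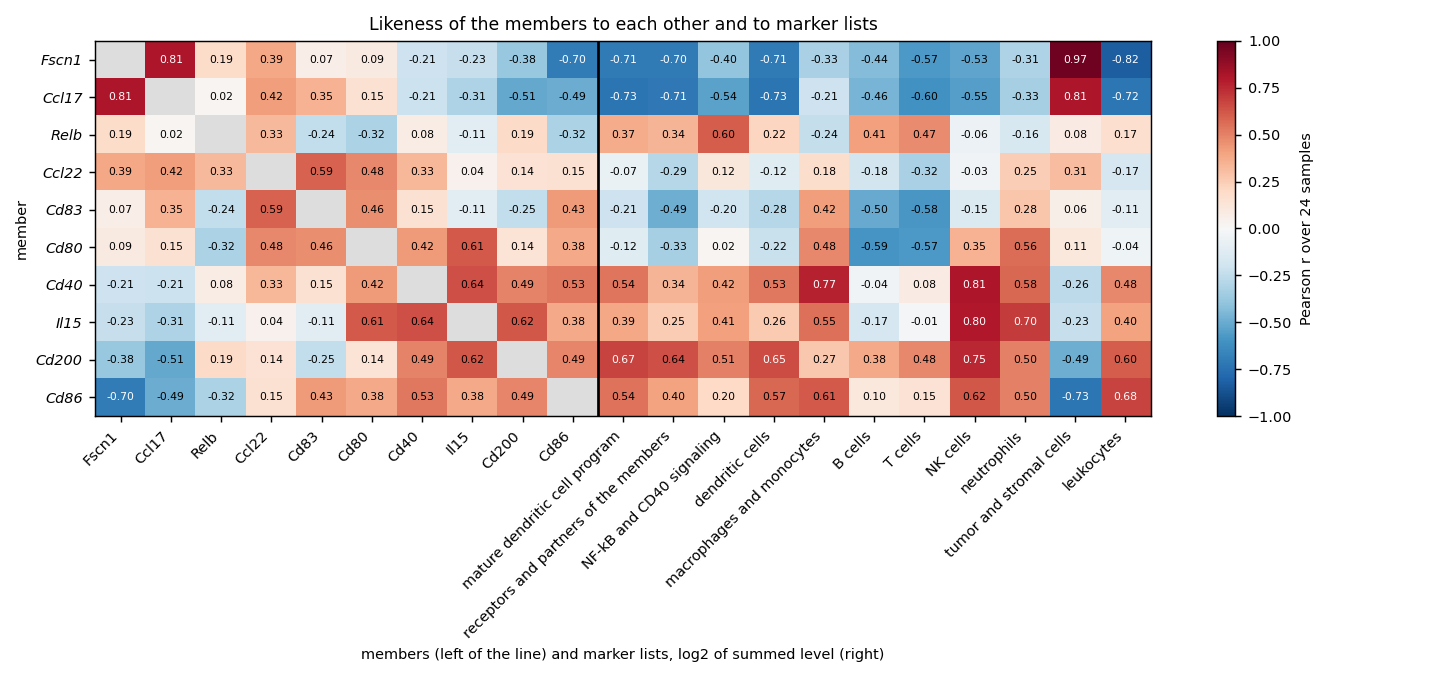
Pearson r over 24 samples between each of the 10 genes (vertical axis) and the other 9 or the log2 of the summed level of 11 gene lists (horizontal axis), from blue at -1 to red at 1. Fscn1 and Ccl17 have their strongest positive values with the tumor and stromal list (0.97 and 0.81) and each other (0.81), and negative values with the dendritic cell list (-0.71 and -0.73).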

How the data were processed

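RNA of CD45+ cells was sequenced by the authors, who aligned reads with STAR 2.4.2a to mm10, counted them per gene with featureCounts (Subread 1.5.0), removed genes averaging fewer than 5 counts and analysed them with DESeq2, per the labels and the study's methods. The deposited values are log2 expression normalized for library size by the authors. The transformation is not given in the sources used here, counts were not recovered, and such values may understate the fold changes that counts would give. No pseudocount was added.

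All 24 samples entered one fit per gene over 16996 genes with limma 3.58.1 in R 4.3.3 (trended variance, 20 residual degrees of freedom, Benjamini-Hochberg adjustment), tested on simulated data first. Each of 6 pairs of groups was compared. Gene lists were summed on the linear scale and logged. The 3 genes most like each member by Pearson r, and from each list the genes with the largest rise and fall, are named, with a few receptors and markers fixed by name. Cacnb3 in the comparison with untreated samples, Krt8, Pdgfrb, Kdr and Col1a2 are also named for context. Positions come from GENCODE M21, in which 99.6% of identifiers were found, on GRCm38, the assembly that mm10 denotes. Promoters were in the RefSeq table for 5 of the 10 genes. The genes, lists and tests were chosen with earlier results of these data known. Replicates are separate mice.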

Additional observations from a re-analysis of the deposited data

Results flagged for a closer look

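Each of the 10 genes was examined in each of the 4 groups for a sample far from the other 5, taken as a gap of more than 0.625 of the group's range. In 0 of 40 sets was there such a sample, where chance gives about 1 in 20.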

How the results depend on the processing

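Fscn1 and Cd86 between T-PNU and T-DM1 passed at an adjusted p below 0.05 under the 5 alternatives that kept this threshold and in all 12 fits that left out a mouse. With the stricter threshold Fscn1 passed and Cd86 did not. The 24 samples gave 0 called genes for T-PNU against untreated, which became 2 on the 20 samples of the heatmaps, 1 among the 8498 genes above the median level (8 of the 10 kept) and 3 with sample weights. For T-DM1 against untreated, 1 became 0 on the 20 samples, 2 with quantile normalization, 2 above the median level, 4 with weights and 0 at a false discovery rate of 0.01 with a 2-fold change. That stricter threshold left 1 of 3 between T-PNU and T-DM1, and a false discovery rate of 0.01 left 0 of 5 for any difference among groups. Weights gave 1 for trastuzumab against untreated and 1 for T-PNU against trastuzumab, and the 20 samples gave 2 for the latter. The cause was not tested. On the 20 samples the share of all genes called for T-PNU against untreated also went from 0.188% to 31.1%. That share was not computed for quantile normalization, the level filter, weights or the fits that left out a mouse. Counts under those settings are therefore not a result about the 10 genes in particular.

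Leaving out 1 mouse gave 0 to 2 for T-PNU against untreated (2 without untreated C1, 1 without T-PNU G1 or A2), 0 to 2 for T-DM1 against untreated (0 without untreated C1 or T-DM1 D3, E3 or F3, and 2 without untreated B1 or T-DM1 G3 or H3), 2 to 4 for T-PNU against T-DM1, 1 to 4 for any difference (1 without T-PNU H1 or T-DM1 D3 or F3) and 0 for the other 3 pairs.

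Signs turned only where differences were small. On the 20 samples these were Ccl22 in T-PNU minus untreated (-0.042), Cd40 in T-PNU minus trastuzumab (0.0054), and Ccl17 (-0.0038) and Relb (0.040) in T-DM1 minus trastuzumab. With weights they were Cd80 in trastuzumab minus untreated (-0.0077) and Relb in T-DM1 minus trastuzumab (0.0014). Leaving out 1 mouse turned small differences within these ranges: Cd40 in T-DM1 minus untreated (-0.11 to 0.12), in trastuzumab minus untreated Cd80 (-0.024 to 0.18), Cd86 (-0.028 to 0.061), Cd83 (-0.0048 to 0.21) and Il15 (-0.0017 to 0.28), in T-PNU minus T-DM1 Cd80 (-0.062 to 0.13) and Cd83 (-0.0079 to 0.12), and in T-DM1 minus trastuzumab Cd80 (-0.021 to 0.17) and Relb (-0.069 to 0.022). Of 1008 alternative values of single genes, 943 kept their direction and their side of the threshold, 28 passed in addition, 12 no longer passed and 25 changed sign. No paired analysis was possible because the labels carry no replicate number shared between groups. Depth is unknown, and the 6 mice a group set the precision.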
